A study of Mus musculus with 9 samples.

Results

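The probe sets described here read microRNA hairpins, the folded stretches of RNA from which mature microRNAs are cut. They were chosen by name: a probe set of the deposited table belongs if its annotation gives exactly 1 gene symbol and that symbol is Mir followed by a number, or Mirlet7 followed by further characters, host gene symbols ending in hg being left out. This gave 298 probe sets of 35557, for 296 different symbols, since Mir713 has 3 probe sets. The rule uses names and no measured value, though it was set with earlier results of these data known. A further 61 probe sets whose annotation names a microRNA together with another gene, and 7 for hg symbols, were left out and appear only as side values.

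RNA was measured on 9 microarrays. The cells were mouse embryonic stem (ES) cells without Dgcr8, the RNA-binding partner of the nuclear enzyme Drosha. One group of 3 arrays received 50 nM of a miRIDIAN mimic of let-7c, a synthetic RNA that acts as the mature microRNA. Another 3 arrays received 50 nM of a mimic of miR-294, and the last 3 were mock transfected. All 3 groups are Dgcr8 -/-, were treated with the transfection reagent Dharmafect 1, were grown without leukaemia inhibitory factor and were harvested 12 h after transfection. The labels call the 3 arrays of a group biological replicates and do not give the line, the clone or the deleted part of Dgcr8. No group received a control mimic, so an effect of transfected RNA as such and an effect of the microRNA cannot be told apart against mock; the comparison of let-7c with miR-294 has a mimic on both sides.

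A microRNA gene is transcribed into a long primary transcript, and several hairpins often lie in 1 transcript as a cluster. Drosha with Dgcr8 cuts the hairpin out, Dicer1 trims it to the mature microRNA, and an Argonaute protein carries that RNA to its targets, which it finds mainly through the seed at its 5′ end. Without Dgcr8 the cutting step is lost for most microRNAs, while their primary transcripts are still made. The let-7 family is abundant in differentiated cells, and the miR-290 and miR-302 families are abundant in ES cells, where they sustain rapid cell cycles. The miR-17 cluster and its relatives, the miR-106a and miR-106b clusters, are known as growth-promoting microRNAs. Which form of RNA a hairpin probe set reads (primary transcript, hairpin or mature strand) was not tested.

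The mature sequences that the mimics are named for are shown with those of the 3 related clusters, because the results turn on these clusters. Sequences are from RefSeq (GRCm38.p6), written 5′ to 3′, with the seed (bases 2 to 8) in capitals.
mmu-let-7c-5p: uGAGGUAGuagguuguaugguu
mmu-miR-294-3p: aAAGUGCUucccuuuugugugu
mmu-miR-17-5p: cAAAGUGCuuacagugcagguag
mmu-miR-20a-5p: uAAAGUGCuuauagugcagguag
mmu-miR-106a-5p: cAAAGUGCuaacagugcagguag
mmu-miR-20b-5p: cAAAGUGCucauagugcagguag
mmu-miR-106b-5p: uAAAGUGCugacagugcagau
mmu-miR-93-5p: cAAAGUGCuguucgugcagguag
mmu-miR-18a-5p: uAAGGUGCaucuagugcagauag
mmu-miR-19a-3p: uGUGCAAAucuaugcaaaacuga
mmu-miR-19b-3p: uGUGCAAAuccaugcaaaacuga
mmu-miR-92a-3p: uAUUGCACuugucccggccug
mmu-miR-363-3p: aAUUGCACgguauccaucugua
mmu-miR-25-3p: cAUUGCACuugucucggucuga
The seeds of miR-294 and miR-17 share a run of 6 bases at an offset of 1 position, and the longest run shared by both mature sequences is 9 bases. By the mature arms that RefSeq's table lists, 9 of the 298 members carry the let-7c seed and 6 carry the miR-17 seed. On the same basis 2, Mir302b and Mir302d, carry the miR-294 seed. Arms missing from that table were not counted, so further members of these families, such as Mirlet7a-2 and Mir302a, may carry the seeds too. The hairpins of the miR-290 cluster, Mir294 included, were not analysed here.

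Values are log2 intensities, and a probe set is called dim in an array if it read below the 40th percentile of that array, which lay between 6.84 and 6.90. Of the members, 164 (55.0%) were above it in 3 or more arrays, against 61.8% of all probe sets. Above it in all 9 arrays were 146 members, and 131 were above it in none. Over the members the mean of the 9 arrays ran from 3.00 (Mir297-1) to 11.2 (Mir20a), with a median of 7.05 against 7.38 over all probe sets. The 12 members with the highest mean were Mir20a, Mir18, Mir19b-1, Mir692-1, Mir341, Mir17, Mir346, Mir19a, Mir6516, Mir598, Mir15a and Mir296. Of these, Mir20a, Mir18, Mir19b-1, Mir17 and Mir19a all belong to the miR-17 cluster. Each probe set has its own response, so this is an order of readings and not of RNA amounts.

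The reading of a member moved with the base composition of its hairpin, which is a further reason not to read amounts across probe sets. Among the 260 hairpins that RefSeq's table holds, GC content ran from 28.4% to 69.2%, and its Pearson correlation with the mean reading was 0.484 (Spearman 0.448). Ordered by GC content, 30 of the lowest 87 hairpins (34.5%), 41 of the middle 86 (47.7%) and 68 of the highest 87 (78.2%) were above the 40th percentile in 3 or more arrays. The hairpins share arrays, processing and, in clusters, a transcript, so these are descriptions. With the differences between groups the Pearson correlation of GC content was 0.11 for let-7c minus mock, 0.26 for miR-294 minus mock and -0.11 for let-7c minus miR-294. Hairpin length, 61 to 112 bases, had a Pearson correlation of 0.04 with the reading.

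The arrays of a group were close to each other. Taken over the members, the median SD among let-7c arrays was 0.0950, among miR-294 arrays 0.102 and among mock arrays 0.0873, and no correlation between arrays of a group over all probe sets was under 0.993. Dgcr8 itself read 8.85, 8.94 and 8.91 with let-7c and 9.13, 9.07 and 9.07 with miR-294, against 8.92, 9.08 and 9.03 with mock, and passed in neither comparison with mock. Between the mimics it was lower with let-7c, by 0.19 (adjusted p = 0.0361). Without knowing the deleted part, these readings do not check the genotype. All 10 ES cell markers listed (Pou5f1, Nanog and others) were above the 40th percentile in all arrays. Their summed log2 level was 116.3 to 116.4 with let-7c and 119.0 to 119.8 with miR-294, against 118.0 to 118.5 with mock. In the limma test described below, 5 of 10 fell with let-7c (4.76% of all probe sets) while 4 of 10 rose with miR-294 (7.76% of all probe sets). Of 9 feeder fibroblast markers, Dcn, Lum and Postn were dim in every array, and 5 were above the 40th percentile in all of them. Sox17 and Afp (primitive endoderm), Cdx2 and Elf5 (trophoblast) and Zic1 (neurectoderm) were dim in every array too. Above the 40th percentile in all arrays were 2 of 6 primitive endoderm, 4 of 6 trophoblast and 3 of 4 neurectoderm markers. The summed levels of the feeder list were 61.1 to 64.8 with let-7c and 61.5 to 63.8 with miR-294, against 60.2 to 63.2 with mock, so the groups overlapped, and 1 of its genes rose with let-7c. The neurectoderm list of 4 genes summed to 32.0 to 32.5 with let-7c and 31.2 to 31.7 with miR-294, against 31.1 to 31.4 with mock, and 1 of its genes rose with let-7c. The primitive endoderm list of 6 summed to 41.1 to 41.9 with let-7c and 41.3 to 41.6 with miR-294, against 40.4 to 41.1 with mock, and 1 of its genes rose with each mimic. The trophoblast list of 6 summed to 48.7 to 50.2 with let-7c and 48.0 to 48.7 with miR-294, against 48.2 to 49.2 with mock, and 1 of its genes fell with let-7c. In such bulk samples, fewer cells of a type and less RNA per cell cannot be told apart, and the part of cell state in the results below was not tested.

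With let-7c, 26 of the 298 hairpin probe sets (8.72%) passed the test against mock, 15 higher and 11 lower. The test was limma's moderated test on all 35557 probe sets at a Benjamini-Hochberg adjusted p under 0.05, two-sided; 81 members had an unadjusted p under 0.05. Of all probe sets 8.26% passed, so as a class the hairpins passed about as often as other probe sets. By direction, 5.03% of the members were higher against 3.50% of all probe sets, and 3.69% were lower against 4.76%. The median difference was 0.05 over the members and 0.02 over all probe sets. The number of arrays limits these counts. Leaving out a single array moved the 15 higher calls to between 7 and 14, with 7 without let-7c 3 or mock 1 and 8 without mock 2 or mock 3. The 11 lower calls became 6 without mock 1, 4 without mock 2 and 5 without mock 3.

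With miR-294, 32 members (10.7%) passed against mock, 26 higher and 6 lower, where 15.9% of all probe sets passed. The higher calls were 8.72% of the members against 7.76% of all probe sets, and the lower calls 2.01% against 8.13%. The median difference was 0.03 over the members and 0.04 over all probe sets. Without mock 1 the 26 higher calls were 16, and without mock 2 they were 15; without miR-294 2 the 6 lower calls were 3. Both comparisons use the same mock arrays, so their results are set side by side and are not independent.

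**Figure D1:**
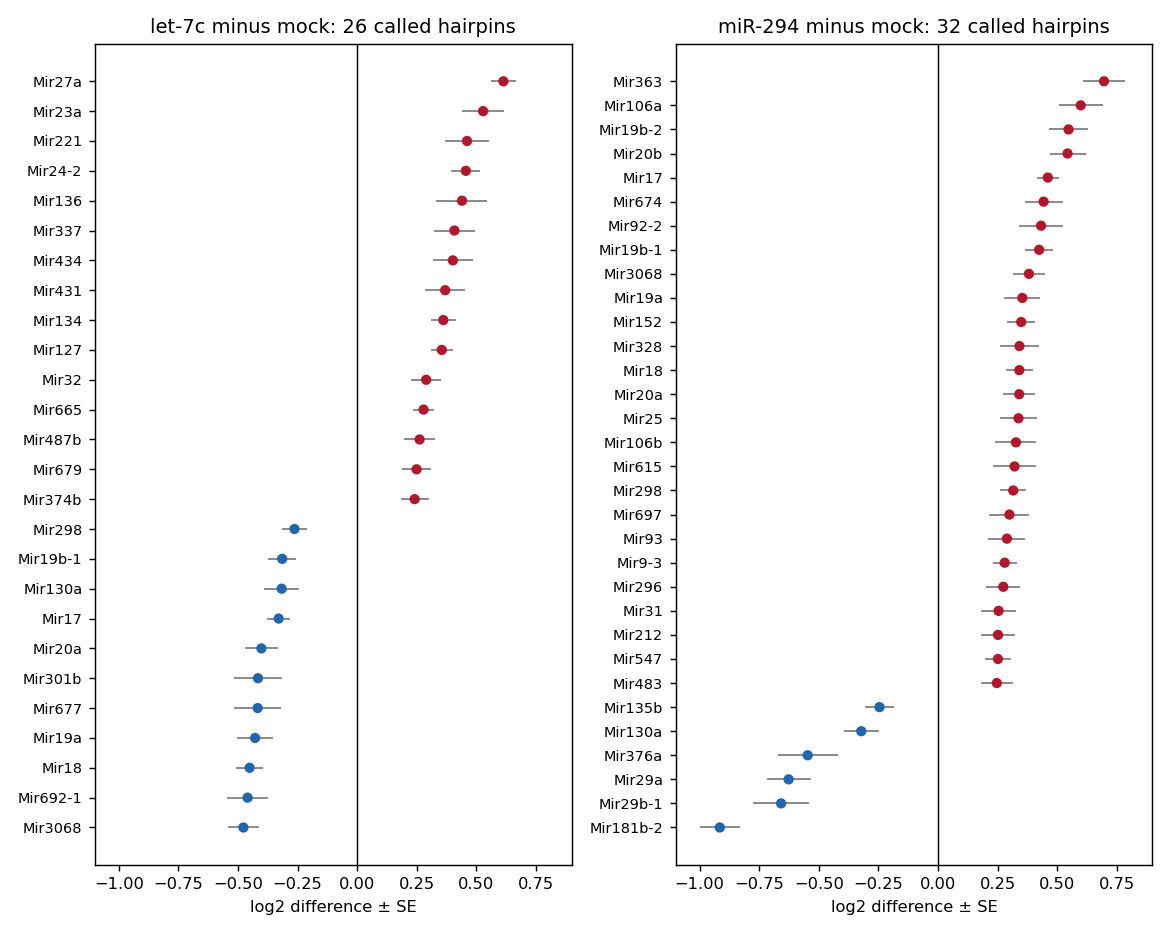
Log2 differences from mock (x axis, ± standard error of the limma fit) of every hairpin probe set called in let-7c minus mock (left, 26) and miR-294 minus mock (right, 32), with called rises in red and called falls in blue. The left panel runs from Mir27a (0.61) down to Mir3068 (-0.48) and the right panel from Mir363 (0.70) down to Mir181b-2 (-0.92).

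The directions in the miR-17 cluster were opposite for the mimics. This cluster on chromosome 14 is transcribed as 1 primary transcript, and its mature products were among the earliest microRNAs tied to tumour growth. All 5 member hairpins (Mir17, Mir18, Mir19a, Mir20a and Mir19b-1) fell with let-7c, by 0.31 to 0.45 on the log2 scale, and all 5 rose with miR-294, by 0.34 to 0.46. The hairpin of Mir17 (GRCm38.p6, chr14:115043671-115043754, plus strand, 84 bases) is shown with both mature arms in capitals.
Mir17: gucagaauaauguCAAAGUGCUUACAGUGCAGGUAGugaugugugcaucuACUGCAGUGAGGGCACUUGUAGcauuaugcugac
Mir17 read 10.25, 10.23 and 10.35 with let-7c and 11.05, 11.04 and 11.10 with miR-294, against 10.58, 10.61 and 10.63 with mock. The 3 groups did not overlap. The difference was -0.33 ± 0.05 with let-7c (standard error, as after every difference below; limma adjusted p = 0.00519) and 0.46 ± 0.05 with miR-294 (adjusted p = 0.000458).

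Mir18, whose mature product differs from miR-17 within the seed, read 10.70, 10.77 and 10.80 with let-7c and 11.52, 11.48 and 11.64 with miR-294, against 11.16, 11.20 and 11.25 with mock. Its difference was -0.45 ± 0.06 with let-7c (adjusted p = 0.00307) and 0.34 ± 0.06 with miR-294 (adjusted p = 0.00479). Mir19a read 9.90, 10.07 and 10.11 with let-7c and 10.75, 10.77 and 10.92 with miR-294, against 10.37, 10.47 and 10.53 with mock. In neither hairpin did the let-7c, miR-294 and mock arrays overlap. Mir19a differed by -0.43 ± 0.08 with let-7c (adjusted p = 0.0119) and 0.35 ± 0.08 with miR-294 (adjusted p = 0.015). Mir20a differed by -0.40 ± 0.07 with let-7c (adjusted p = 0.00992) and 0.34 ± 0.07 with miR-294 (adjusted p = 0.0109). Mir19b-1 differed by -0.31 ± 0.06 with let-7c (adjusted p = 0.0157) and 0.42 ± 0.06 with miR-294 (adjusted p = 0.00206). Single arrays decided some of these calls. With let-7c, Mir19a was lost without mock 2 (adjusted p = 0.0501) or mock 3 (0.0508), and Mir19b-1 without let-7c 1 (0.0514), mock 2 (0.0623) or mock 3 (0.0645). With miR-294, Mir19a was lost without mock 1 (0.056). Against each other, let-7c arrays were lower than miR-294 arrays for all 5 hairpins, by 0.74 to 0.79, and these 5 calls held under all 17 alternatives, as did the calls of Mir17, Mir18 and Mir20a against mock.

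Side values from the same transcript ran alike. The probe set of Mir17hg, the host gene of the cluster, read 8.74, 8.61 and 8.64 with let-7c and 9.49, 9.34 and 9.47 with miR-294, against 8.98, 9.12 and 9.09 with mock. Its difference was -0.40 (adjusted p = 0.00797) with let-7c and 0.37 (adjusted p = 0.00583) with miR-294. The probe set annotated to both Mir92-1 and Mir17hg differed by -0.21 with let-7c (adjusted p = 0.0901, below all mock arrays but not called) and by 0.47 with miR-294 (adjusted p = 0.00171).

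The miR-106a cluster on the X chromosome is a relative of the miR-17 cluster. All 5 of its member hairpins (Mir106a, Mir20b, Mir19b-2, Mir92-2 and Mir363) rose with miR-294, by 0.43 to 0.70. With let-7c none passed limma's test, and 0 had an unadjusted p under 0.05. Mir363, with a seed like that of miR-92a, read 8.93, 8.93 and 9.11 with let-7c and 9.79, 9.58 and 9.83 with miR-294, against 9.15, 8.94 and 9.02 with mock. Every miR-294 array of Mir363 was above every other array, while let-7c and mock overlapped. Its difference of 0.70 ± 0.09 from mock with miR-294 (adjusted p = 0.00124) was the largest rise among the members, and with let-7c it was -0.05 ± 0.09 (adjusted p = 0.813).
Mir363: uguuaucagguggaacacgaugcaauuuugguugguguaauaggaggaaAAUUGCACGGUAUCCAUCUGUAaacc
This hairpin lies at chrX:52741693-52741767 (GRCm38.p6, minus strand), and RefSeq's table gives the arm in capitals.

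Mir106a read 8.30, 8.21 and 8.37 with let-7c and 9.16, 8.94 and 9.12 with miR-294, against 8.59, 8.30 and 8.54 with mock, and rose with miR-294 by 0.60 ± 0.09 (adjusted p = 0.00333). Mir19b-2 rose by 0.55 ± 0.08 (adjusted p = 0.00272) and Mir20b by 0.54 ± 0.08 (adjusted p = 0.00196). The rise of Mir92-2, 0.43 ± 0.09 (adjusted p = 0.0146), was lost without mock 2 (0.0543); the other 4 were called under all 17 alternatives. In all 5, every miR-294 array lay above every mock array, which adds no support to calls made on the same arrays. With let-7c the 5 differences from mock were all negative, -0.18 to -0.05, with adjusted p of 0.234 or more. Between the mimics all 5 were lower with let-7c, by 0.57 to 0.78, under every alternative. The clusters share letters, so a probe set may read a relative too, and how far was not tested: the longest shared run was 25 bases between the hairpins Mir19b-1 and Mir19b-2, 14 between Mir20a and Mir20b, and 13 between Mir17 and Mir106a.

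The miR-106b cluster lies in an intron of Mcm7, a replicative helicase subunit, on chromosome 5. Its 3 hairpins (Mir106b, Mir93 and Mir25) rose with miR-294 by 0.29 to 0.34. With let-7c none passed limma's test, and 1 of the 3 had an unadjusted p under 0.05. Mir93 read 8.19, 8.37 and 8.25 with let-7c and 8.66, 8.87 and 8.93 with miR-294, against 8.48, 8.52 and 8.58 with mock. Its difference was 0.29 ± 0.08 with miR-294 (adjusted p = 0.0379) and -0.26 ± 0.08 with let-7c (adjusted p = 0.0849). Mir106b rose by 0.33 ± 0.09 (adjusted p = 0.0356) and Mir25 by 0.34 ± 0.08 (adjusted p = 0.0207). These calls were weak: none of the 3 was called without miR-294 2, miR-294 3, mock 1 or mock 2, where the adjusted p of the 3 ran up to 0.115. Mcm7 itself differed by -0.04 with miR-294 (adjusted p = 0.802) and by -0.23 with let-7c (adjusted p = 0.121). Between the mimics all 3 hairpins were lower with let-7c, by 0.31 to 0.55. Mir25 lost that call without let-7c 2 (adjusted p = 0.0544), let-7c 3 (0.0502) or miR-294 3 (0.0674). It was also lost with only let-7c and miR-294 arrays (0.0542).

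**Figure D2:**
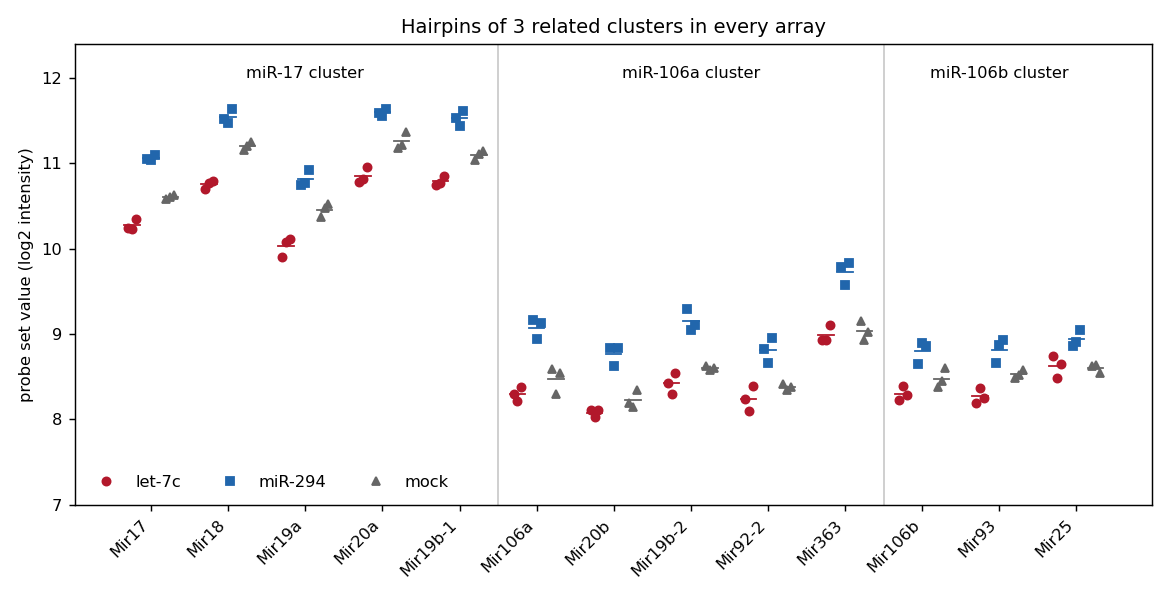
Probe set values (log2 intensity, y axis) of the 13 hairpins of the miR-17, miR-106a and miR-106b clusters in every array, with let-7c as red circles, miR-294 as blue squares and mock as grey triangles, and the group mean as a bar. The miR-294 arrays lie above all mock arrays in all 13 hairpins, all of which were called higher with miR-294 on these same arrays. The let-7c arrays lie below all mock arrays in the 5 hairpins of the miR-17 cluster, and also in Mir93, which was not called with let-7c. The share of all probe sets separated in this way was not counted.

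Grouped by seed, the 6 hairpins with the miR-17 seed (Mir17, Mir20a, Mir106a, Mir20b, Mir106b and Mir93) all rose with miR-294, and Mir17 and Mir20a fell with let-7c. The 3 hairpins with the miR-19 seed all rose with miR-294, and Mir19a and Mir19b-1 fell with let-7c. The seed groups and the clusters overlap, so these counts restate the cluster values by seed. The ES cell marker list moved the same way as the miR-17 cluster in both comparisons, and its part in these differences was not tested.

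**Figure D3:**
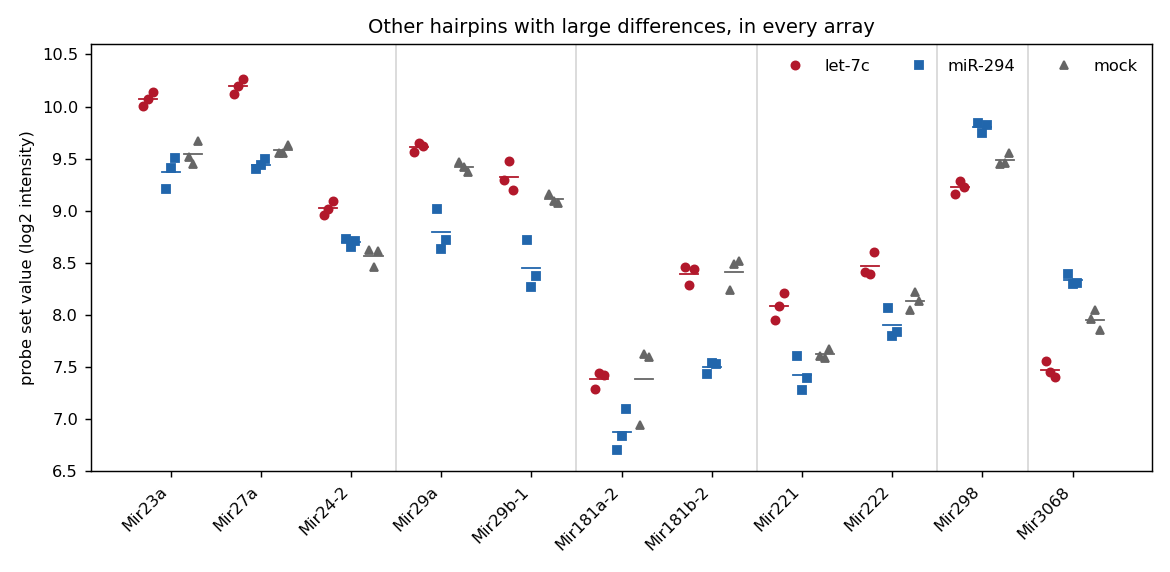
Probe set values (log2 intensity, y axis) in every array of 11 further hairpins, with let-7c as red circles, miR-294 as blue squares and mock as grey triangles, and the group mean as a bar. The let-7c arrays lie above all others in Mir23a, Mir27a and Mir24-2, and the miR-294 arrays lie below all others in Mir29a, Mir29b-1 and Mir181b-2.

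The rises with let-7c were led by Mir27a and Mir23a of the miR-23a cluster on chromosome 8, whose mature products are common in differentiated cells. All 3 hairpins rose with let-7c and none passed with miR-294. Mir27a read 10.12, 10.20 and 10.27 with let-7c and 9.40, 9.44 and 9.50 with miR-294, against 9.56, 9.56 and 9.63 with mock. All let-7c arrays were above all others. The difference from mock was 0.61 ± 0.05 with let-7c (adjusted p = 0.000651), a 1.53-fold level, and -0.14 ± 0.05 with miR-294 (adjusted p = 0.127). Its hairpin (GRCm38.p6, chr8:84208672-84208758, plus strand) is shown because it was the largest rise, with both mature arms in capitals.
Mir27a: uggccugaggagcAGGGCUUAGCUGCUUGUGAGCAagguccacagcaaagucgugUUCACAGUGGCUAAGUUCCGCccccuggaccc

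Mir23a read 10.01, 10.07 and 10.13 with let-7c and 9.20, 9.41 and 9.50 with miR-294, against 9.51, 9.45 and 9.67 with mock, and rose with let-7c by 0.53 ± 0.09 (adjusted p = 0.00957). Mir24-2 read 8.96, 9.02 and 9.10 with let-7c and 8.73, 8.65 and 8.71 with miR-294, against 8.63, 8.46 and 8.62 with mock, and rose with let-7c by 0.46 ± 0.06 (adjusted p = 0.00395). All let-7c arrays were above all mock arrays in both. The miR-294 values differed by -0.17 ± 0.09 for Mir23a (adjusted p = 0.244) and 0.13 ± 0.06 for Mir24-2 (adjusted p = 0.197). The 3 rises with let-7c, and the 3 higher calls against miR-294 (0.32 to 0.75), held under all 17 alternatives; Mir27a became a called fall with miR-294 when only probe sets above the 60th percentile were tested (adjusted p = 0.0444).

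The hairpins of the imprinted Dlk1-Dio3 region of chromosome 12, where a long array of microRNAs is expressed from the maternal chromosome, held 9 of the 15 rises with let-7c. The 39 member hairpins there fall into 3 clusters, with hairpins counted as 1 cluster where gaps on a strand were at most 10 kb. With let-7c 9 of 39 rose and none fell, and 38 of 39 differences were above 0, with a median of 0.24; of all probe sets 3.50% rose and 54.9% had a difference above 0. With miR-294 none rose and Mir376a fell, and 10 of 39 differences were above 0 (59.6% of all probe sets), with a median of -0.07. Averaged over the 39 hairpins, each as its deviation from its own mean over the 9 arrays, the values were 0.08, 0.22 and 0.22 with let-7c and -0.18, -0.14 and -0.07 with miR-294, against -0.14, -0.02 and 0.02 with mock. All let-7c arrays were highest, and miR-294 and mock overlapped.

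The calls with let-7c lay mainly in the cluster that runs from Mir673 to Mir136, where 6 of 8 hairpins rose (Mir337, Mir665, Mir431, Mir127, Mir434 and Mir136), against 3 of 29 in the cluster that runs from Mir379 to Mir369 (Mir679, Mir487b and Mir134); the difference between these shares was not tested. Of these 9, Mir127, Mir134, Mir665, Mir679 and Mir487b are named although they were picked out after their values were seen. Mir127, whose product acts on the retrotransposon-like gene Rtl1, read 10.33, 10.31 and 10.42 with let-7c and 9.96, 9.89 and 9.93 with miR-294, against 9.979, 9.996 and 10.03 with mock. All let-7c arrays were above all others. The difference was 0.35 ± 0.05 with let-7c (adjusted p = 0.00363) and -0.07 ± 0.05 with miR-294 (adjusted p = 0.35). Its hairpin (GRCm38.p6, chr12:109592846-109592915, plus strand) has both mature arms in capitals.
Mir127: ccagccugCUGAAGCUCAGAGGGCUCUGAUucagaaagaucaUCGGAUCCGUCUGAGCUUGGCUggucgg

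Mir134, whose product is known from neurons, read 9.81, 9.67 and 9.77 with let-7c and 9.40, 9.34 and 9.44 with miR-294, against 9.40, 9.42 and 9.35 with mock. It rose with let-7c by 0.36 ± 0.05 (adjusted p = 0.0059) and differed by 0.01 ± 0.05 with miR-294 (adjusted p = 0.956). Mir136 read 9.55, 9.92 and 9.81 with let-7c and 9.20, 9.38 and 9.26 with miR-294, against 9.21, 9.48 and 9.27 with mock. Mir136 had the largest called rise of the region, 0.44 ± 0.11, with a wide spread between arrays of a group (adjusted p = 0.0418). The let-7c arrays lay above all mock arrays in each of the 9 called hairpins. These 9 were picked by the test on the same arrays, so this separation adds no support to their calls. Mir337 rose by 0.41 ± 0.09 (adjusted p = 0.0236), Mir434 by 0.40 ± 0.08 (adjusted p = 0.024) and Mir431 by 0.37 ± 0.08 (adjusted p = 0.0308).

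These counts leaned on single arrays. The 9 rises with let-7c became 6 without let-7c 1 or let-7c 2, 4 without let-7c 3, 3 without mock 1 or mock 3, 5 without mock 2, and 4 when only let-7c and mock arrays were fitted; with the filter at the 60th percentile they were 16. Mir136 reached an adjusted p of 0.125 without mock 1 or mock 3, and was also lost without let-7c 2 (0.104), let-7c 3 (0.121), miR-294 1 (0.057), miR-294 2 (0.0568) or miR-294 3 (0.0641). Mir337 was lost without let-7c 2 (0.0571), mock 1 (0.0806), mock 2 (0.0637) or mock 3 (0.0774). Mir434 was lost without let-7c 2 (0.07), let-7c 3 (0.0685), mock 1 (0.0828) or mock 3 (0.0883). Mir431 was lost without let-7c 1 (0.0924), let-7c 3 (0.083), mock 1 (0.053), mock 2 (0.0861) or mock 3 (0.0607). Mir679 (0.25 ± 0.06, adjusted p = 0.0439) was lost without any 1 of the 9 arrays (0.0608 to 0.129), and Mir487b (0.26 ± 0.06, adjusted p = 0.0427) without any except miR-294 1 and miR-294 3 (0.0541 to 0.129). The calls of Mir127, Mir134 and Mir665 (0.28 ± 0.04, adjusted p = 0.00821) held under all 17 alternatives. The fall of Mir376a with miR-294 (-0.55 ± 0.13, adjusted p = 0.0201), from a probe set that was dim in 7 arrays, was lost without miR-294 1 (0.0524), miR-294 2 (0.0585), miR-294 3 (0.0593), mock 2 (0.073) or mock 3 (0.0719).

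Rian, the non-coding RNA gene of this region that holds Mir341, rose with let-7c by 0.61 (adjusted p = 0.00431) and differed by -0.06 with miR-294 (adjusted p = 0.69). Mir341 read 11.14, 10.87 and 10.95 with let-7c and 10.58, 10.59 and 10.64 with miR-294, against 10.72, 10.58 and 10.89 with mock. Its let-7c arrays overlapped mock, and the difference was 0.26 ± 0.09 (adjusted p = 0.132). Between the mimics 18 of the 39 hairpins were higher with let-7c, where 11.0% of all probe sets were, and none was lower, 6 of 8 in the cluster with Mir127 and 11 of 29 in that with Mir134. Without miR-294 2 these 18 were 10, and without let-7c 3 or miR-294 1 they were 11.

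**Figure D4:**
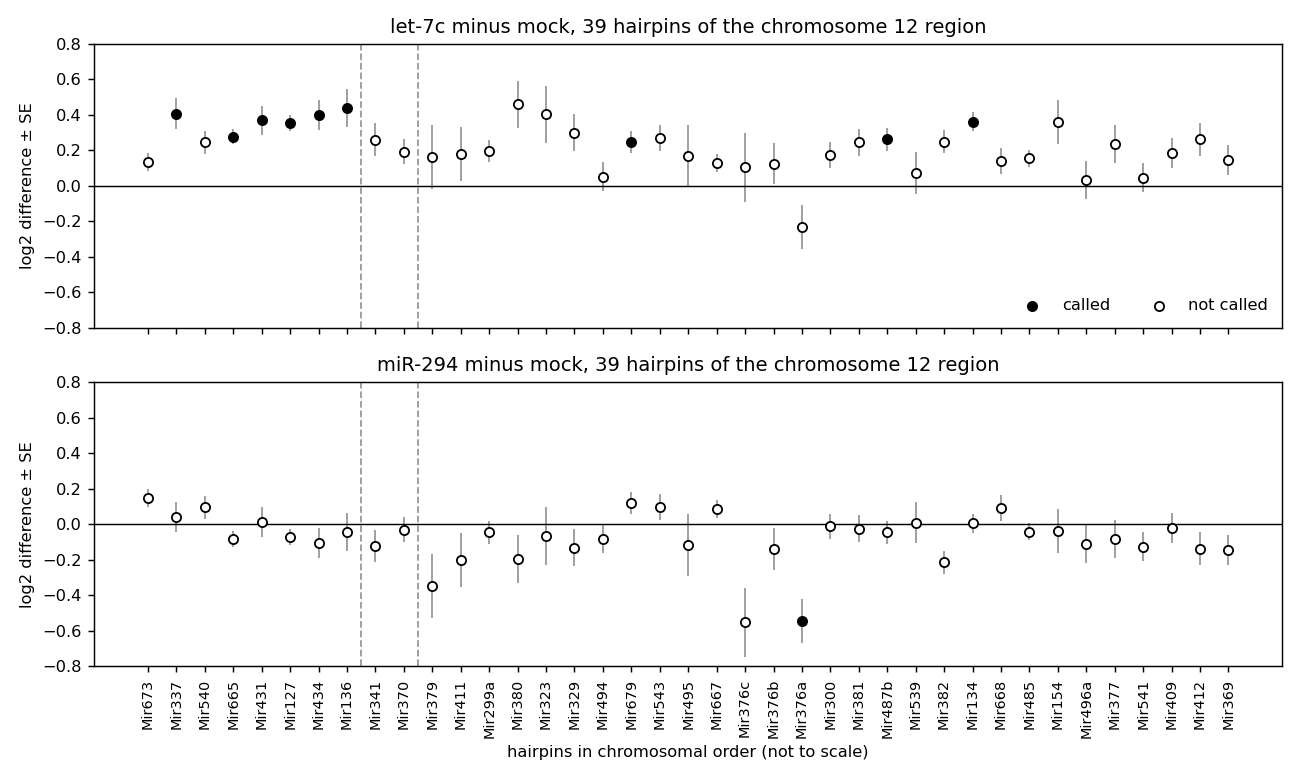
Log2 differences from mock (y axis, ± standard error) of the 39 hairpins of the chromosome 12 region in chromosomal order, for let-7c (top) and miR-294 (bottom), with called differences filled and cluster borders dashed. With let-7c 38 of 39 points lie above 0 and 9 are filled; with miR-294 10 of 39 lie above 0 and Mir376a is the filled one.

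The largest falls among the members came with miR-294. Mir181b-2, a hairpin of the miR-181 family known for roles in lymphocytes, read 8.46, 8.29 and 8.44 with let-7c and 7.44, 7.54 and 7.53 with miR-294, against 8.24, 8.49 and 8.52 with mock. All miR-294 arrays were below all others, and let-7c and mock overlapped. The difference from mock was -0.92 ± 0.08 with miR-294 (adjusted p = 0.000266), a 0.530-fold level, and -0.02 ± 0.08 with let-7c (adjusted p = 0.93). Its neighbour Mir181a-2, taken for its position, differed by -0.51 ± 0.18 with miR-294 (adjusted p = 0.0951) with overlapping arrays. The hairpin of Mir181b-2 (GRCm38.p6, chr2:38853830-38853918, plus strand) lies inside Nr6a1os, and both mature arms are in capitals.
Mir181b-2: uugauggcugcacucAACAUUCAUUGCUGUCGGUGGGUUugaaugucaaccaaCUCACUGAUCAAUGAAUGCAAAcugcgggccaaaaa

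Mir29a and Mir29b-1, a cluster on chromosome 6 whose products are known to lower collagen and DNA methyltransferase RNAs, both fell with miR-294. Mir29a read 9.56, 9.65 and 9.62 with let-7c and 9.02, 8.63 and 8.72 with miR-294, against 9.47, 9.42 and 9.37 with mock. Mir29b-1 read 9.30, 9.47 and 9.20 with let-7c and 8.72, 8.27 and 8.37 with miR-294, against 9.16, 9.09 and 9.08 with mock. In both, the groups did not overlap, with miR-294 lowest and let-7c highest. The differences with miR-294 were -0.63 ± 0.09 (adjusted p = 0.00266) for Mir29a and -0.66 ± 0.12 (adjusted p = 0.00647) for Mir29b-1. With let-7c they were 0.19 ± 0.09 (adjusted p = 0.264) and 0.21 ± 0.12 (adjusted p = 0.335), which did not pass. The falls of Mir29a, Mir29b-1 and Mir181b-2 held under all 17 alternatives. Both hairpins are shown with mature arms in capitals to let the shared letters of the family be seen; they lie on the minus strand at chr6:31062660-31062747 (Mir29a) and chr6:31063023-31063093 (Mir29b-1) in GRCm38.p6, and their longest shared run is 11 bases.
Mir29a: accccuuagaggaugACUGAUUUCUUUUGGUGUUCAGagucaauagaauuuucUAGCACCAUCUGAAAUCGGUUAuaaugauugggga
Mir29b-1: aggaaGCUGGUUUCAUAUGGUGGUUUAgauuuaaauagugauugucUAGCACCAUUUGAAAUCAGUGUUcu

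The remaining falls with miR-294 were small. Mir130a fell by 0.32 with miR-294 (adjusted p = 0.0206) and by 0.32 with let-7c (adjusted p = 0.0364), and was the 1 member called lower in both; no member was called higher in both. It read 8.42, 8.70 and 8.68 with let-7c and 8.61, 8.61 and 8.57 with miR-294, against 8.89, 8.95 and 8.92 with mock, so both mimics lay below all mock arrays. Its call with miR-294 was lost without miR-294 2 (0.0567), miR-294 3 (0.0659), mock 1 (0.052), mock 2 (0.0718) or mock 3 (0.0615). Its call with let-7c was lost without any 1 array except let-7c 1 and let-7c 2 (0.0541 to 0.12), and with only let-7c and mock arrays (0.0869). Mir135b fell by 0.25 with miR-294 (adjusted p = 0.0313), lost without miR-294 1 (0.0911), miR-294 2 (0.0869), mock 1 (0.0507), mock 2 (0.108) or mock 3 (0.0798).

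Apart from the miR-17 cluster, Mir298 and Mir3068 were also lower with let-7c and higher with miR-294, which makes 7 members with opposite calls against mock; none was higher with let-7c and lower with miR-294. Mir3068 read 7.56, 7.45 and 7.41 with let-7c and 8.39, 8.30 and 8.31 with miR-294, against 7.96, 8.04 and 7.85 with mock. The 3 groups did not overlap. Its difference was -0.48 ± 0.07 with let-7c (adjusted p = 0.00425), the largest called fall with that mimic, and 0.38 ± 0.07 with miR-294 (adjusted p = 0.00538), and both calls held under all 17 alternatives. The hairpin (GRCm38.p6, chr12:87437679-87437757, minus strand) lies in Alkbh1 and outside the imprinted region.
Mir3068: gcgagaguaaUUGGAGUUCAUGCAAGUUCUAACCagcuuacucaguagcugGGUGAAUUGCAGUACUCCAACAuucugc
Mir298, named after its values were seen, read 9.16, 9.28 and 9.23 with let-7c and 9.84, 9.75 and 9.82 with miR-294, against 9.45, 9.46 and 9.55 with mock. It fell by 0.26 with let-7c (adjusted p = 0.0212) and rose by 0.32 with miR-294 (adjusted p = 0.00521). The fall was lost without let-7c 1 (0.0634), let-7c 3 (0.0639), mock 1 (0.0504), mock 2 (0.06) or mock 3 (0.0791). With only let-7c and mock arrays it was lost too (0.0524). Its neighbour Mir296 rose with miR-294 by 0.27 ± 0.07 (adjusted p = 0.033), a call lost without let-7c 3 (0.0515), miR-294 1 (0.0927), miR-294 3 (0.0985), mock 1 (0.0538), mock 2 (0.111) or mock 3 (0.0764).

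Mir221 and Mir222 form a cluster on the X chromosome whose products are known to lower the cell cycle inhibitor Cdkn1b. Mir221 read 7.95, 8.08 and 8.22 with let-7c and 7.60, 7.28 and 7.40 with miR-294, against 7.60, 7.59 and 7.67 with mock, and rose with let-7c by 0.46 ± 0.09 (adjusted p = 0.0203). The call was lost without let-7c 2 (0.0548), let-7c 3 (0.0669), mock 1 (0.0668), mock 2 (0.0772) or mock 3 (0.0548). Mir222, taken for its position, differed by 0.34 ± 0.09 (adjusted p = 0.0578). Between the mimics both were higher with let-7c, by 0.65 (adjusted p = 0.0012) and 0.57 (adjusted p = 0.00209), under all alternatives in which they were tested.

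The other named falls with let-7c were those of Mir692-1, Mir677 and Mir301b. Mir692-1 read 10.49, 10.75 and 10.80 with let-7c and 11.13, 11.29 and 11.13 with miR-294, against 11.15, 11.13 and 11.14 with mock. It fell by 0.46 with let-7c (adjusted p = 0.0147) and was lost without mock 1 (0.0515), mock 2 (0.0544) or mock 3 (0.0528). The 4 distinct probe sets annotated together to Mir692-2, Mir692-3 and Ftl1, the ferritin light chain gene, differed by -0.67 to -0.60 with let-7c, with adjusted p up to 0.000919, and by 0.06 to 0.11 with miR-294; whether the Mir692-1 probe set reads ferritin RNA was not tested. Mir677 fell by 0.42 (adjusted p = 0.0377), while Atp5b, the ATP synthase gene that holds it, differed by -0.05 (adjusted p = 0.496). Without let-7c 1 Mir677 had an adjusted p of 0.0985, without let-7c 2 0.0949, without miR-294 2 0.0609, without mock 1 0.116 and without mock 2 0.125. With only let-7c and mock arrays it was 0.065, and with the replicate number added to the fit 0.0724, so the call was lost there too. Mir301b fell by 0.42 (adjusted p = 0.0415), a call lost without any 1 of the let-7c or mock arrays (0.0777 to 0.124).

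Among the rises with miR-294 outside the 3 related clusters, Mir674 was the largest. It read 8.96, 8.96 and 8.88 with let-7c and 9.11, 9.32 and 9.14 with miR-294, against 8.62, 8.88 and 8.75 with mock. The miR-294 arrays were above all others, and the difference from mock was 0.44 ± 0.08 (adjusted p = 0.00667). With let-7c it was 0.18 ± 0.08 (adjusted p = 0.215).

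The hairpins of the let-7 family were examined because let-7c is a member of this family. None of the 10 (9 Mirlet7 hairpins and Mir98) passed limma's test against mock with either mimic, and 1 in each comparison had an unadjusted p under 0.05, in both cases lower with the mimic. With let-7c the nearest to the threshold was Mirlet7g, which read 7.59, 7.68 and 7.59 with let-7c and 8.07, 7.87 and 7.98 with miR-294, against 7.86, 7.80 and 7.90 with mock. Its difference was -0.23 ± 0.06 with let-7c (adjusted p = 0.0531, and 0.0242 to 0.157 over the alternatives, passing in 5 of them) and 0.12 ± 0.06 with miR-294 (adjusted p = 0.244). Between the mimics it was lower with let-7c by 0.35 ± 0.06 (adjusted p = 0.00347), as was Wdr82, the gene that holds it, by 0.29 (adjusted p = 0.00148).

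Mirlet7c-1, 1 of the hairpins from which let-7c is cut, was dim in every array. It read 4.56, 4.15 and 4.14 with let-7c and 4.19, 4.21 and 3.92 with miR-294, against 3.99, 4.19 and 4.10 with mock, so that 1 let-7c array stood above the rest and the groups overlapped. Its difference was 0.19 ± 0.13 with let-7c (adjusted p = 0.432), where 50 nM of the mimic had been added. The hairpin (GRCm38.p6, chr16:77599657-77599750, plus strand) is shown with both mature arms in capitals, the 5′ arm being the sequence of let-7c.
Mirlet7c-1: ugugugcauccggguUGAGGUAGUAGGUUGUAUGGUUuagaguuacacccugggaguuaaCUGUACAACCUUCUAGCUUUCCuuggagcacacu
The other let-7 hairpins with values above the 40th percentile in all arrays were Mirlet7a-1, Mirlet7d, Mirlet7e, Mirlet7f-1 and Mirlet7i, whose differences from mock ran from -0.19 to 0.13 with let-7c and from -0.18 to 0.14 with miR-294. Mirlet7a-2, Mirlet7f-2 and Mir98 were dim in every array, with differences of -0.05 to 0.08 with let-7c and -0.05 to 0.18 with miR-294.

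The miR-302 cluster on chromosome 3, a family of ES and epiblast cells with a seed like that of miR-294, had 5 members. None was called by limma in the fit of group means alone, where 0 had an unadjusted p under 0.05 in any comparison. Mir302b read 7.41, 7.09 and 8.13 with let-7c and 7.09, 7.22 and 7.91 with miR-294, against 7.48, 7.58 and 8.02 with mock. In each group the array of replicate 3 read highest, for all 5 hairpins, and the groups overlapped. The differences from mock were -0.19 to 0.15 with let-7c and -0.33 to -0.10 with miR-294, with standard errors of 0.24 to 0.31. In the fit of group means alone, only larger changes could thus have been seen. There Mir302a, Mir302c, Mir302d and Mir367 had adjusted p of 0.397 or more in both comparisons with mock. With the replicate number added to the fit, Mir302d (adjusted p = 0.0396) and Mir367 (0.0333) were called for let-7c minus miR-294. For that comparison the 5 differences ran from 0.07 to 0.42. Against mock none of the 5 was called with the replicate number added either.

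Set against miR-294 directly, let-7c gave 64 called members (21.5%), 36 higher and 28 lower, where 22.4% of all probe sets passed. The higher calls were 12.1% of the members against 11.0% of all probe sets, and the lower calls 9.40% against 11.4%. The largest difference up was that of Mir181b-2 (0.90 ± 0.08, adjusted p = 0.000131), followed by Mir29b-1 (0.87 ± 0.12, adjusted p = 0.000895) and Mir29a (0.82 ± 0.09, adjusted p = 0.000354). The largest down was that of Mir3068 (-0.86 ± 0.07, adjusted p = 4.89e-05), followed by those of Mir18 (-0.79), Mir17 (-0.79), Mir19a (-0.78) and Mir106a (-0.78). All 13 hairpins of the miR-17, miR-106a and miR-106b clusters were among the 28 lower ones. Of the 64 calls 41 held under all alternatives that tested them, against 10 of 26 for let-7c with mock and 16 of 32 for miR-294 with mock, and no called member changed sign. Without let-7c 3 or miR-294 2 the 36 higher calls were 23. Mir15a, a hairpin whose product is known to lower Bcl2, exceeded its miR-294 level by 0.38 ± 0.08 with let-7c (adjusted p = 0.00915), while it differed from mock by 0.18 (adjusted p = 0.23) with let-7c and -0.20 (adjusted p = 0.131) with miR-294. Mir380 was higher by 0.65 ± 0.13 (adjusted p = 0.00775) and the dim Mir376c by 0.66 ± 0.19 (adjusted p = 0.042). The call of Mir376c was lost without any 1 array except let-7c 1 and mock 3 (0.0554 to 0.132). It was also lost with quantile normalization (0.0511) and with only let-7c and miR-294 arrays (0.0773). In all, 75 members (25.2%) were called in at least 1 comparison, against 27.6% of all probe sets, and 7 (2.35%) in all 3, against 2.29%; 223 were called in none. Mir346 and Mir598, among the highest members, were called in no comparison.

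Many hairpins lie inside another gene on the same strand and share its primary transcript. Of the members, 124 had such a host in RefSeq and 90 a host with a probe set of its own, over 71 different hosts. Hairpin and host differences had a Pearson correlation of 0.395 for let-7c minus mock, 0.259 for miR-294 minus mock and 0.467 for let-7c minus miR-294 over the 90 pairs, which share arrays and, in part, hosts. Where the hairpin was called, the host was called the same way in 1 of 3 (let-7c with mock), 0 of 7 (miR-294 with mock) and 5 of 11 (let-7c with miR-294), and never the opposite way. The 5 were Mir130b and Mir301b with 2610318N02Rik (-0.47, adjusted p = 0.00045), Mir341 with Rian (0.67, adjusted p = 0.000606), Mir697 with Sf3a3 (-0.55, adjusted p = 0.000353) and Mirlet7g with Wdr82. These hosts are named because their hairpins were called. For let-7c with mock, 15 of the 90 pairs, from 10 different hosts, had the host called and the hairpin not. Of these 15 pairs, 5 shared 1 host. For miR-294 with mock there were 23 such pairs, from 20 different hosts. In the comparison of the mimics, 28 pairs from 24 different hosts had the host called and the hairpin not. Of all probe sets 8.26%, 15.9% and 22.4% were called in these comparisons, in the same order. Some of the uncalled hairpins were dim in every array, which limits what a missing call can show. Whether hairpin and host were called together more often than other pairs was not tested.

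**Figure D5:**
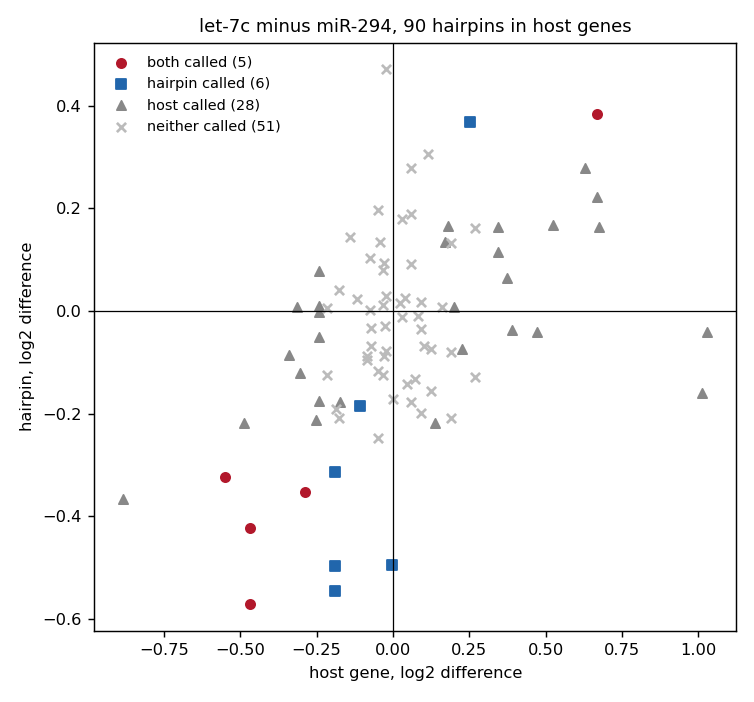
Log2 difference of let-7c minus miR-294 of 90 hairpins (y axis) against that of the gene that holds each (x axis), with symbols for which of them was called. The 5 pairs called on both axes have the same sign for hairpin and host.

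The genes that make and use microRNAs were read as the other part of the pathway. Of 40 listed genes, 38 had a probe set, and where a gene had several the probe set with the highest mean was used. With let-7c none rose and 12 fell, where 3.50% of all probe sets rose and 4.76% fell, and the median difference was -0.12. The largest falls were those of Trim71 (-1.52, adjusted p = 1.84e-05), a stem cell RNA-binding protein, and Dicer1 (-1.42, adjusted p = 1.84e-05). Tarbp2, the Dicer partner, fell by 0.86 (adjusted p = 0.000202) and Lin28b, which blocks let-7 maturation, by 0.69 (adjusted p = 0.000213). With miR-294 8 rose and 11 fell, where 7.76% of all probe sets rose and 8.13% fell. The rises were led by Lin28a (1.20, adjusted p = 0.0023). The falls were led by Ago1 (-1.36, adjusted p = 3.22e-06) and Tnrc6a (-1.08, adjusted p = 7.34e-06), which encode core parts of the silencing complex. Drosha, the enzyme that cuts hairpins from primary transcripts, fell by 0.24 with let-7c (adjusted p = 0.0232) and differed by 0.05 with miR-294 (adjusted p = 0.565). Between the mimics 9 of the 38 were higher and 16 lower with let-7c, where 11.0% of all probe sets were higher and 11.4% lower. The part of these genes in the hairpin values was not tested.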

How the data were processed

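Each array has 1 deposited value for every probe set. Per the submitters' processing notes the authors used GCRMA, which corrects background, normalizes and summarises probes, with no version given. The values were read as log2 intensities from their range, since no header of the deposited table states the scale, and were used as deposited. Gene symbols came from GEO's platform annotation. Differences were fitted with limma 3.58.1 in R 4.3.3 (lmFit and eBayes, no trend) on all 35557 probe sets without a filter on dim ones: 1 fit of 9 arrays, 3 group means, 6 residual degrees of freedom, Benjamini-Hochberg over the table. The fit was tested on simulated data. Nothing in the labels says that the biological replicates came from separate cultures, so p-values measure the spread between these arrays.

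Named in each comparison were all called members or, above 16, the 8 largest rises and 8 largest falls, with all hairpins of the let-7, miR-302, miR-17, miR-106a and miR-106b groups and the 12 with the highest means. Members, gene lists and marker lists were chosen with earlier results of these data known. Hairpins, hosts and clusters (gaps of at most 10 kb) came from RefSeq (GRCm38.p6), which holds 260 of the 298 hairpins. Other normalizations, filters, fits and subsets of arrays were tried, 17 in all.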

Additional observations from a re-analysis of the deposited data

How the results depend on the processing

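Of the 17 alternatives, 9 left out 1 array each. Under no alternative did a called member change sign. All probe sets called in let-7c with mock were 4412 with the filter at the 60th percentile. The members called higher there were 24 with the filter at the 40th percentile, 26 at the 60th, 27 with 1 probe set per symbol and 9 when only let-7c and mock arrays were fitted, and those called lower were 18 with 1 probe set per symbol. Members called lower with miR-294 against mock were 10 and 12 with these filters, 14 with 1 probe set per symbol and 12 with a replicate block. Leaving out 1 array gave ranges of 7 to 14 higher and 4 to 12 lower members for let-7c with mock, 15 to 29 and 3 to 8 for miR-294 with mock, and 23 to 37 and 22 to 29 for let-7c with miR-294. Over all probe sets these ranges were 1426 to 2706, 3767 to 5876 and 6400 to 7451, and the members' median differences ran from 0.0405 to 0.0754, 0.0086 to 0.0463 and -0.0058 to 0.0395. The cause of each move was not tested. All 3 groups carry replicate numbers 1 to 3, but the labels name no batch shared by arrays of a number, so the main fit has no replicate block. Arrays of the same number correlated at 0.0132 to 0.1718 in their deviations from the group means, and other pairs at -0.1596 to 0.0473. Of the 9 arrays, 8 correlated best with an array of their own number, and whether the numbers mark shared cultures or days was not tested. With the replicate block 20 members were higher and 13 lower for let-7c with mock, 28 and 12 for miR-294 with mock, and 49 and 30 for let-7c with miR-294. In that fit Mir302d (adjusted p = 0.0396) and Mir367 (0.0333) were called for let-7c with miR-294, and Mir677 (0.0724), Mir679 (0.0547) and Mir487b (0.0576) were not called for let-7c with mock. Probe sets near background, as for the 131 members dim in every array, limit what a missed call can show.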

Other observations

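Probe sets that name a microRNA together with another gene, and so lie outside the hairpins described above, showed further differences; they hold 38 distinct sets of values. The probe set for Mir22hg and Mir22, a microRNA known from heart and blood, read 8.54, 8.81 and 8.89 with let-7c and 8.30, 8.27 and 8.36 with miR-294, against 7.96, 8.22 and 8.15 with mock, and rose with let-7c by 0.64 ± 0.10 (standard error, limma adjusted p = 0.00735). The probe set for Mir433 and 6430411K18Rik read 11.17, 11.12 and 11.11 with let-7c and 10.72, 10.71 and 10.75 with miR-294, against 10.84, 10.80 and 10.72 with mock, and rose with let-7c by 0.35 ± 0.05 (adjusted p = 0.00376). All let-7c arrays were above all mock arrays in both.

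Further miR-29 hairpins were read by probe sets that also name A330023F24Rik. Mir29b-2 there rose with let-7c by 0.43 (adjusted p = 0.0142) and differed by -0.23 with miR-294 (adjusted p = 0.094), from values that were dim in all arrays. Mir29c there differed by 0.20 with let-7c (adjusted p = 0.438) and by -0.38 with miR-294 (adjusted p = 0.0946). The probe set for Mirlet7c-2 and Lncppara, the other source of let-7c, read 8.05, 7.85 and 7.96 with let-7c and 7.88, 7.71 and 7.84 with miR-294, against 7.77, 7.45 and 7.54 with mock, and rose with let-7c by 0.37 ± 0.09 (adjusted p = 0.0465). For Mirlet7c-2 and Lncppara the let-7c arrays overlapped those of miR-294, which in turn overlapped mock. These probe sets were picked after their values were seen, their calls are given without the alternatives, and the gene each reads was not tested.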
